A study of Mus musculus with 12 samples.

Results

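Acute phase proteins are plasma proteins that the liver makes in larger or smaller amounts when cytokines, chiefly interleukin-6 and interleukin-1, signal inflammation. Metallothioneins are small cysteine-rich proteins that hold zinc and copper, and hepatocytes induce them in response to metals, glucocorticoids and inflammation. Because both sets respond to stress and infection, they are commonly read as a sign of the state of a liver. The 10 genes described here were taken by name as a fixed set: Saa1, Saa2, Saa4, Orm1, Hp, Crp, Lcn2, Itih4, Mt1 and Mt2. All 10 were found among the 55487 genes of the input count table, and 9 of them among the 10607 genes that the authors' normalized table lists. Mt2 was found only in the count table.

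The genes were measured in the livers of 6 mice, 3 pairs of littermates that each joined a wild type (WT) with a knockout (KO) of Mettl5. Knockout mice carried a deletion of a floxed exon 2 of Mettl5, made in the whole body by the CMV-cre transgene, so the deletion was not limited to hepatocytes. METTL5 is the enzyme that adds the N6-methyladenosine mark of 18S rRNA. The line began from embryonic stem cells of a C57bl/6 x 129S6 hybrid and was backcrossed to B6. The study used males and females aged 4 weeks to 6 months, and the sex and age of these 6 mice are not analysed here. Livers of both genotypes were frozen and lysed in buffer with cycloheximide, which stalls ribosomes on their transcripts. From each liver, undigested lysate was sequenced as the input library, which reads out how much of each transcript there is, along with an RPF library, made from the ribosome-protected fragments left after nuclease digestion. RPF divided by input gives a gene's translation efficiency (TE).

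Input libraries held 8326325 to 11825643 counted read pairs over all genes of the count table. Over the genes of the normalized table, input held 2398804 to 5121304 reads and RPF 4623826 to 9184242. The KO mouse of litter 1 had the most input reads there, and the next most were 3078540 in the KO mouse of litter 2. Mettl5 itself had 38.5, 28.2 and 15.7 normalized input reads in the WT mice and 8.55, 9.30 and 7.995 in the KO mice. Its RPF value was lower in the knockouts, with a log2 fold change of −2.64 ± 0.36 (SE, n = 3 mice per genotype, limma, adjusted p = 0.00504). In input its change was −1.59 ± 0.46 (edgeR, adjusted p = 0.999) and in TE −1.16 ± 0.51 (limma, adjusted p = 0.998). Even the targeted gene thus had an adjusted p under 0.05 in RPF only. The adjusted p of Mettl5 in RPF was 0.0519 without the KO mouse of litter 2. The labelled tissue was checked by its markers, and 5 hepatocyte genes (Alb, Apoa1, Apob, Cps1 and Tat) summed to 20682 to 26380 CPM (TMM-scaled counts relative to library size) in WT and 21271 to 22688 in KO. Summed CPM of 6 Kupffer cell genes were 62.2 to 94.7 in WT and 56.6 to 84.7 in KO, of 5 sinusoidal endothelial genes 82.1 to 92.9 and 79.1 to 98.9, of 4 stellate cell genes 64.5 to 78.0 and 76.1 to 93.1, and of 5 erythroid genes 45.8 to 61.0 and 40.9 to 47.8. Of 6 neutrophil genes, Ngp, Camp and Mpo had no count in any library, and the list summed to 0 to 0.134 CPM in WT and 0 to 0.359 in KO. The 4 lymphocyte genes summed to 0.234 to 0.403 CPM in WT and 0.403 to 0.718 in KO. In bulk tissue, fewer cells of a type and less RNA per cell cannot be told apart.

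The genes spanned a wide range of levels, with Hp, Itih4, Orm1 and Crp at the top and Saa1, Saa2, Lcn2 and the metallothioneins at the bottom. On the scale of input CPM per kilobase of merged exon, Hp was highest in WT at 327 ± 22.8 (SD, n = 3). It was followed by Itih4 at 104 ± 10.2, Orm1 at 72.6 ± 5.47, Crp at 31.7 ± 3.52 and Saa4 at 21.5 ± 3.85. Saa1 stood at 2.13 ± 1.08, Saa2 at 0.802 ± 0.338 and Mt1 at 0.428 ± 0.0506, and Lcn2 at 0.0869 ± 0.0426 and Mt2 at 0.0761 ± 0.132 came last. Saa1 and Saa2, Saa2 and Mt1, and Lcn2 and Mt2 were neighbours in this order whose ranges over mice overlapped in both genotypes, and Crp and Saa4 overlapped in KO.

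**Figure D1:**
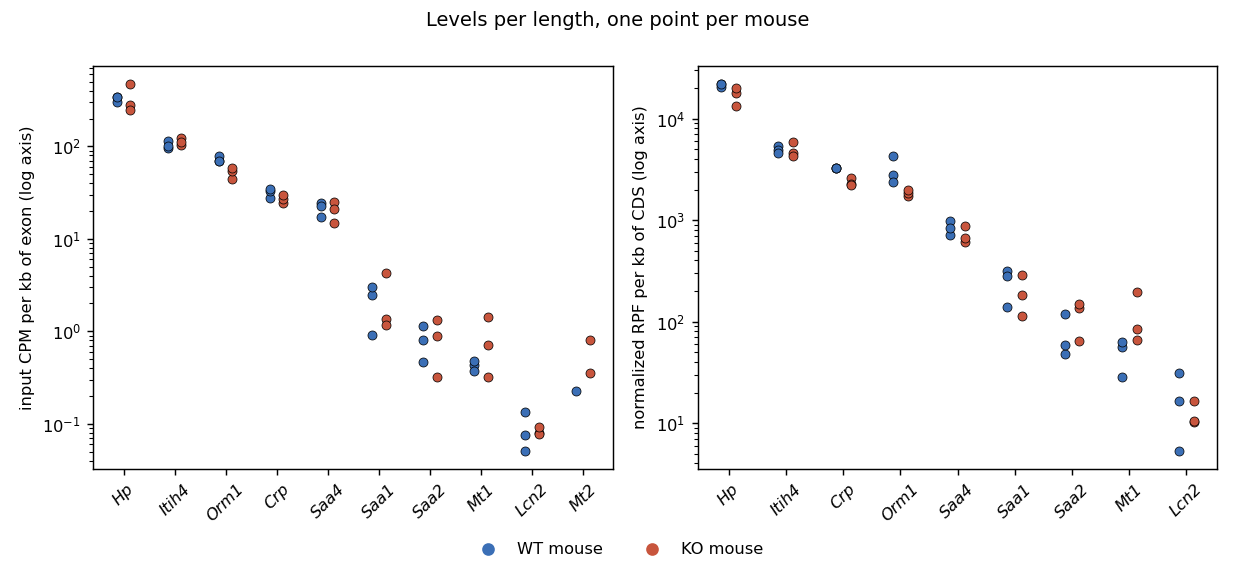
Levels of the genes per kilobase on log axes, input CPM per kilobase of merged exon at left and normalized RPF per kilobase of the longest coding sequence at right, with 1 point for each WT (blue) and KO (red) mouse. Mt2 mice with no count are not drawn, and Hp lies highest in both panels, at 327 input CPM per kilobase in WT on average.

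The order depended in part on the gene model. With the length of the principal transcript in place of the merged exons, the ranges of Orm1 (72.6 ± 5.47) and Crp (64.4 ± 7.15) overlapped in both genotypes. In normalized RPF per kilobase of the longest coding sequence, Hp was again highest in WT at 21391 ± 636, then Itih4 at 4966 ± 418, Crp at 3246 ± 17.4, Orm1 at 3142 ± 1014, Saa4 at 850 ± 137 and Saa1 at 244 ± 91.2. Saa2 (75.2 ± 39.0), Mt1 (49.0 ± 18) and Lcn2 (17.7 ± 13.1) closed the order, and WT ranges overlapped between Crp and Orm1 and between each pair of neighbours from Saa2 downwards. Mt1 has a longest annotated coding sequence of 396 bases but a principal one of 183 bases, and per kilobase of the latter its RPF was 106 ± 39.0 in WT, above Saa2. In the plot of levels per length, Saa4 stood above Saa1 in both assays with no overlap between their mice. Per kilobase of principal transcript, however, their input ranges overlapped in KO (Saa4 from 14.7, Saa1 up to 17.5).

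The 9 genes in the normalized table took 0.337% to 0.386% of its input reads in WT and 0.310% to 0.419% in KO. They took 0.803% to 0.839% of its RPF reads in WT and 0.680% to 0.813% in KO, so they held a larger share of RPF reads than of input reads in every mouse. These shares have no length term. The KO mouse of litter 2 had the lowest share in both assays.

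Of the 10 genes, 7 passed the count filter and were tested in input, and 8 passed the filter on low values and were tested in RPF and TE. Of these 8, Mt1 passed only through its KO mice, with a mean normalized input of 7.16 in WT and 13.5 in KO. None of the genes tested had an adjusted p under 0.05 in any of the 3 comparisons. In input, edgeR called 0% of 10057 genes at that threshold and 3.46% at an unadjusted p under 0.05, the latter including 1 of the 7 (Orm1, lower in KO), and DESeq2 also called none of the 7. In RPF, limma called 0.489% of 8994 genes at an adjusted p under 0.05 and 13.4% at an unadjusted p under 0.05, the latter including 3 of the 8 (Orm1 and Crp lower and Mt1 higher in KO). edgeR on whole RPF reads also called none of the 8. In TE, limma called 0% of 8994 genes after adjustment and 4.7% before it, and none of the 8 either way, and edgeR on whole reads also called none of the 8.

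Ranges of the genotypes were also compared. In RPF, Orm1, Crp and Hp were lower in every KO mouse than in every WT mouse, which held for 12.9% of all genes tested, and Mt1 was higher in every KO mouse, as were 6.97% of all genes. In input, Orm1 alone of the 7 was lower in every KO mouse, against 3.77% of all genes, and none was higher in every KO mouse, against 4.6%. In TE the genotypes overlapped for all 8, while 7.34% of all genes were lower and 6.09% higher in every KO mouse. The median log2 fold change over the tested members was 0.01 in input, −0.29 in RPF and −0.15 in TE, beside −0.00037, −0.03 and −0.01 over all genes tested.

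**Figure D2:**
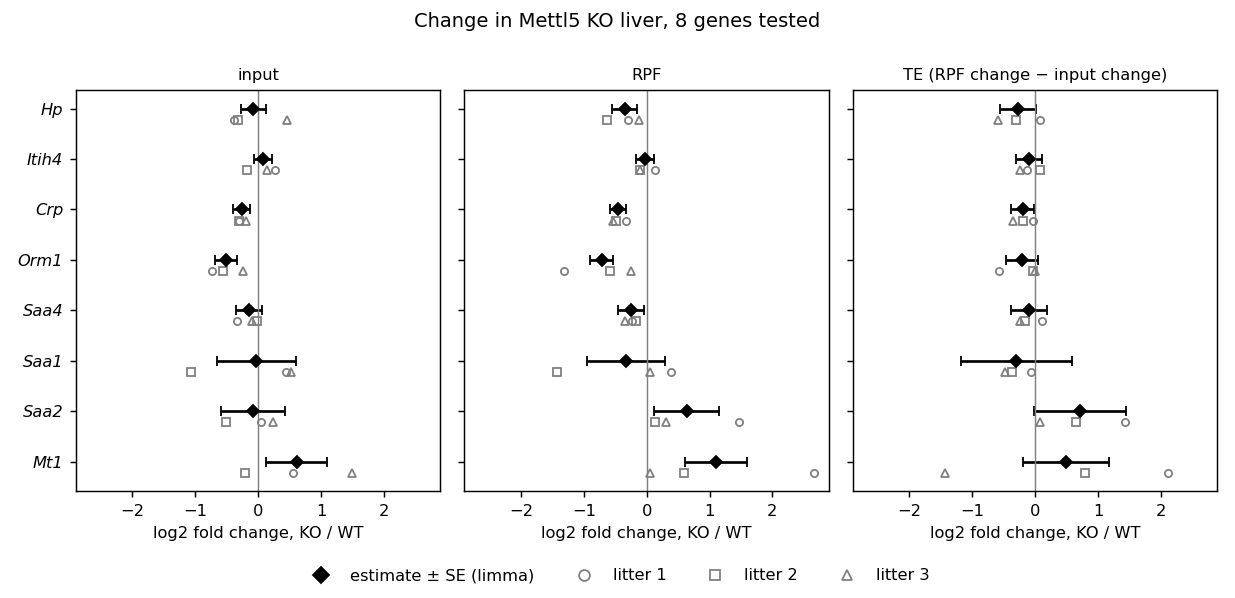
Log2 fold change (KO over WT) of the 8 genes tested, in input, RPF and TE, all from the limma fit to the normalized table. Black diamonds with bars are estimates ± SE (3 mice per genotype) and open symbols the difference within each pair of littermates. In RPF, Orm1 (−0.71) and Crp (−0.46) lie below 0 in all 3 litters and Mt1 (1.10) above it, with litter 1 farthest out for Orm1 and Mt1.

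Orm1 encodes alpha-1-acid glycoprotein, a plasma carrier of drugs and lipids. It lies on chromosome 4 (63344560 to 63348163 of mm10, plus strand). Its normalized input values were 732, 818 and 716 in WT mice 1 to 3 and 439, 556 and 606 in their KO littermates. Its RPF values were 2664, 1719 and 1470 in WT and 1073, 1144 and 1240 in KO. The genotypes did not overlap in either assay, and the WT mouse of litter 1 stood above the other WT mice in RPF. The log2 fold change was −0.48 ± 0.14 in input (edgeR, adjusted p = 0.999) and −0.71 ± 0.18 in RPF (limma, adjusted p = 0.0788), and it was negative in 3 of 3 litters in both. TE was 3.64, 2.10 and 2.05 in WT and 2.44, 2.06 and 2.05 in KO, which differed by less than the spread among mice (log2 fold change of −0.20 ± 0.25, adjusted p = 0.998 in limma). Without the WT mouse of litter 1, the RPF difference was −0.47 and the TE difference 0.07 on the log2 scale. Orm1 shares 19.0% of the 28-base windows of its coding sequence with Orm2, Orm3 or the gene Gm11212, and reads with several matches were dropped by the authors, so its level relative to its paralogs is uncertain.

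Crp encodes C-reactive protein, a pentraxin that binds phosphocholine on microbes and dying cells and that is only a minor acute phase protein in mice. The gene is on chromosome 1 (172698055 to 172833031, plus strand). Its RPF values were nearly the same in the WT mice, at 2189, 2181 and 2204, and lower in the KO mice, at 1736, 1548 and 1513. Input was 1308, 1508 and 1576 in WT and 1064, 1227 and 1383 in KO, and there the genotypes overlapped. The RPF log2 fold change was −0.46 ± 0.13 (limma, adjusted p = 0.122), negative in 3 of 3 litters, and the input change −0.24 ± 0.14 (edgeR, adjusted p = 0.999). With the litter as a replicate block, the adjusted p of Crp in RPF was 0.0401, and without the KO mouse of litter 1 it was 0.0441, in which case the log2 fold change was −0.52. With the block and the GC content trend of coding sequences removed together, the adjusted p of Crp was 0.211. TE of Crp lay between 1.40 and 1.67 in the WT mice, and between 1.09 and 1.63 in the KO mice, with a log2 fold change of −0.20 ± 0.19 (limma, adjusted p = 0.998).

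Hp encodes haptoglobin, which binds free haemoglobin, and it was the most abundant of the genes. It lies on chromosome 8 (109575128 to 109579172, minus strand). Its RPF values were 22657, 21504 and 22644 in WT and 18441, 13879 and 20720 in KO, without overlap. Input was 7424, 6467 and 7273 in WT and 5716, 5178 and 10040 in KO, where the KO mouse of litter 3 was the highest of all 6. The RPF log2 fold change was −0.35 ± 0.20 (limma, adjusted p = 0.475), and the input change was 0.01 ± 0.22 (edgeR, adjusted p = 0.999), negative in litters 1 and 2 and positive in litter 3. Without the KO mouse of litter 2 the RPF change of Hp was −0.19. Without the KO mouse of litter 3 the input change of Hp was −0.34 on the log2 scale. TE was 3.05 to 3.33 in WT and 2.06 to 3.23 in KO (log2 fold change of −0.27 ± 0.29, limma, adjusted p = 0.998).

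RPF changes across the transcriptome were also examined after a trend with the GC content of coding sequences was removed. Coding sequences of Crp and Orm1 have a GC content of 47.7% and 48.1%, below the median of 52.6% over 8986 genes tested, while that of Hp is 56.1%. After removal of the trend, the RPF log2 fold change was −0.32 for Crp, −0.59 for Orm1 and −0.43 for Hp. All 3 then had an unadjusted p under 0.05 and none an adjusted one. Mt1 had 0.98 after removal, and its p was no longer under 0.05 before adjustment. The part of GC content in these differences beyond that was not tested.

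**Figure D3:**
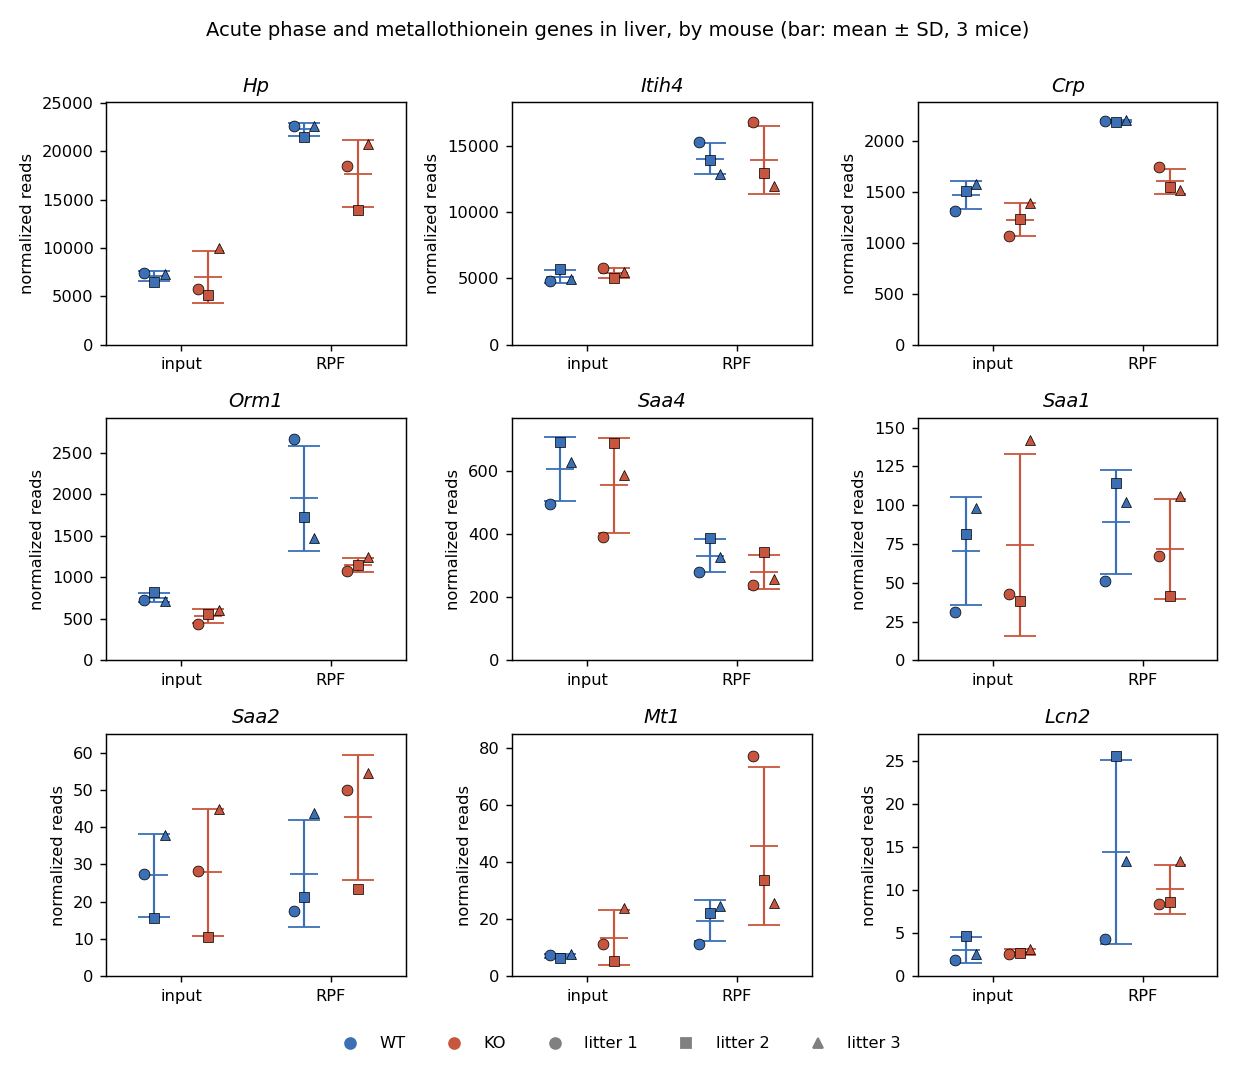
Normalized reads of the 9 genes of the normalized table in input and RPF, with 1 point per mouse (blue WT, red KO, symbol by litter) and bars for the mean ± SD of 3 mice, on linear axes that start at 0. Orm1, Crp and Hp show the RPF of all KO mice below that of all WT mice, and the 1073 to 1240 of Orm1 in KO sit under its 1470 to 2664 in WT.

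Itih4 and Saa4 gave values that differed little between genotypes. Itih4, a heavy chain of the inter-alpha-trypsin inhibitor family that is secreted by hepatocytes, lies on chromosome 14 (30886476 to 30902353, plus strand). Its RPF was 15267, 13923 and 12912 in WT and 16813, 12953 and 12012 in KO, and its input 4791, 5675 and 4939 in WT and 5753, 4995 and 5459 in KO. The genotypes overlapped in both assays, with log2 fold changes of 0.10 ± 0.14 in input (edgeR, adjusted p = 0.999) and −0.02 ± 0.14 in RPF (limma, adjusted p = 0.957).

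Saa4 encodes a serum amyloid A protein that is made constitutively and travels on high-density lipoprotein. It lies on chromosome 7 (46727998 to 46732603, minus strand), in the same cluster as Saa1 and Saa2. Its RPF was 280, 386 and 329 in WT and 238, 342 and 258 in KO, below its littermate in each of 3 pairs but within the spread among mice (log2 fold change of −0.25 ± 0.20, limma, adjusted p = 0.631). When each mouse was left out, the RPF change of Saa4 ran from −0.41 to −0.14. Input was 493, 691 and 628 in WT and 391, 686 and 585 in KO. Its TE was the lowest among the 9 genes in every mouse, at 0.523 to 0.567 in WT and 0.441 to 0.610 in KO. TE here has no length term, so this order does not rank the genes by translation. Merged exons of Saa4 span 2094 bases, of which 390 are coding.

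Saa1 and Saa2 encode the serum amyloid A proteins that the mouse liver induces most steeply in the acute phase. Saa1 lies on chromosome 7 at 46740497 to 46742980 on the minus strand and Saa2 at 46751790 to 46754313 on the plus strand, 8810 bases apart and head to head. Both coding sequences have 366 bases without the stop codon and differ at 18 of them (95.1% identity). Their first 200 coding bases are shown, since they hold a stretch in which a footprint cannot be assigned to either gene and most of the bases that tell them apart. Introns are left out, the build is GRCm38, and capitals mark the 12 bases at which the genes differ.
Saa1 (chr7:46741286-46742522, minus strand): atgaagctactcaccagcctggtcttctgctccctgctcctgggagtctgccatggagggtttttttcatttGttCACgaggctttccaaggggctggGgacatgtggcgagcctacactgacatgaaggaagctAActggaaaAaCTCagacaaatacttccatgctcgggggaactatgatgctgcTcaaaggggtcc
Saa2 (chr7:46752291-46753526, plus strand): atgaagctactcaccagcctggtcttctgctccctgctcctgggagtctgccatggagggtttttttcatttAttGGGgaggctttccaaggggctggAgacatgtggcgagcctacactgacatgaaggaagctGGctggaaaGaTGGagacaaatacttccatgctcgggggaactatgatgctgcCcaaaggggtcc
The first 72 bases are identical, and of all windows of 28 bases, about the length of a footprint, 44.2% in Saa1 and 39.5% in Saa2 also occur in another gene (Saa1, Saa2, Saa3 or a Saa pseudogene). A read that falls wholly in such a window has more than 1 location, and the authors kept reads with a single location, so the split between these genes is uncertain.

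Both genes were at low levels and varied widely among mice of the same genotype. Saa1 had 17, 52 and 75 input counts in WT and 65, 29 and 89 in KO, and 59, 134 and 198 RPF reads in WT and 97, 68 and 111 in KO. Its normalized RPF was 51.4, 114 and 102 in WT and 67.4, 41.8 and 106 in KO. The genotypes overlapped, the lowest value being that of the KO mouse of litter 2 and the next lowest that of the WT mouse of litter 1. Saa1 gave log2 fold changes of 0.01 ± 0.72 in input (edgeR, adjusted p = 0.999) and −0.33 ± 0.62 in RPF (limma, adjusted p = 0.864). Without the KO mouse of litter 2, the RPF change of Saa1 was 0.00302 on the log2 scale.

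Saa2 had 15, 10 and 29 input counts in WT and 43, 8 and 28 in KO. Its normalized RPF was 17.4, 21.3 and 43.8 in WT and 50.0, 23.4 and 54.5 in KO, higher in the knockout of each of 3 pairs but with overlapping genotypes. The RPF log2 fold change was 0.63 ± 0.51 (limma, adjusted p = 0.639), that of input 0.03 ± 0.47 (edgeR, adjusted p = 0.999) and that of TE 0.72 ± 0.73 (limma, adjusted p = 0.998). When each mouse was left out, the RPF change of Saa2 ran from 0.37 (without the WT mouse of litter 1) to 1.02 (without that of litter 3). Counted reads of Saa1 exceeded those of Saa2 in every library, and the ratio in RPF was 2.95, 5.36 and 2.33 in WT and 1.35, 1.79 and 1.95 in KO, lower in every KO mouse than in every WT mouse. In input it was 1.13, 5.20 and 2.59 in WT and 1.51, 3.63 and 3.18 in KO, where the genotypes overlapped. The ratios carry no test, and how often the ratio of other gene pairs separates the genotypes was not computed. The split of reads between the genes is uncertain as described.

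Lcn2, on chromosome 2 (32384633 to 32388252, minus strand), encodes lipocalin-2, which binds bacterial siderophores and is made by inflamed hepatocytes and by neutrophils. It was near the limit of detection, with 1, 3 and 2 input counts in WT and 4, 2 and 2 in KO. In RPF the WT mice gave 5, 30 and 26 reads and the KO mice 12, 14 and 14, which is 4.36, 25.6 and 13.4 against 8.34, 8.61 and 13.4 after normalization. It passed neither filter, and an exact permutation test of RPF (two-sided) gave p = 0.6, where 3 mice against 3 cannot go below 0.1, so this test could not have passed 0.05 whatever the values.

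Mt1 and Mt2 encode the metallothioneins that liver makes, and the zinc-sensing transcription factor MTF1 acts on them through metal response elements in their promoters. Mt2 (chromosome 8, 94172664 to 94173568, plus strand) ends 5514 bases before Mt1 (94179082 to 94180327, plus strand). Their principal coding sequences, of 183 bases each without the stop codon, are 79.2% identical. Promoters are shown from RefSeq (GRCm38.p6), 250 bases before to 50 after the start site, to place the metal response elements found in them. Capitals mark matches on either strand to TGCACNC or TGCGCNC, the core of the element.
Mt1 (chr8:94178839-94179138, plus strand): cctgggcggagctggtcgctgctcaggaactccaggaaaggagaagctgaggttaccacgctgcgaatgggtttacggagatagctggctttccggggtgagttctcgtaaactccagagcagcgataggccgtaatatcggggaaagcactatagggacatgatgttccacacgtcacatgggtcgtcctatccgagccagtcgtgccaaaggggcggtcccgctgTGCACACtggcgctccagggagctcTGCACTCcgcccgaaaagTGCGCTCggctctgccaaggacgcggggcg
Mt2 (chr8:94172368-94172667, plus strand): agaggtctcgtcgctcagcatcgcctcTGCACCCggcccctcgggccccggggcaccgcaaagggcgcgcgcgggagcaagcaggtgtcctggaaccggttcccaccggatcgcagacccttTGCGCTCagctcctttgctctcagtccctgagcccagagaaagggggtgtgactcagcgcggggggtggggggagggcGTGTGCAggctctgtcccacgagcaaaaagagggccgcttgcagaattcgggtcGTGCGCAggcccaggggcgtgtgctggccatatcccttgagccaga
The Mt1 window held 3 matches and the Mt2 window 4, while none was found in the windows of Saa1, Saa2, Saa4, Crp, Lcn2 and Itih4. Orm1 and Hp were not searched. Of 32817 promoters of the same length, 25.7% held at least 1 match and 0.518% held 4 or more. The share with 3 or more, the number in Mt1, was not computed. The C/EBP motif TTNNGNAA occurred in 6 of the 8 promoters found (Saa1, Saa2, Saa4, Crp, Lcn2 and Mt2), against 40.7% of all promoters. Both strands were searched, and no match of the 2 motifs overlapped another of the other kind in these windows. These are matches of letters and no measurement of binding.

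Mt1 was scarce in these livers. It had 4, 4 and 6 input counts in WT and 17, 4 and 15 in KO, too few for the count filter, and an exact permutation test (two-sided) of its CPM gave p = 0.4. In RPF the WT mice gave 13, 26 and 48 reads and the KO mice 111, 55 and 27, that is 11.3, 22.2 and 24.8 against 77.2, 33.8 and 25.8 after normalization. Every KO value was above every WT value, but the lowest KO mouse (litter 3) exceeded the highest WT mouse, its littermate, only from 24.8 to 25.8. Mt1 passed the filter on low values only through the KO mice, as its normalized input averaged 7.16 in WT and 13.5 in KO. The filter asked for a mean of 10, so the RPF and TE values of Mt1 are no support for a higher level in KO. The log2 fold change in RPF was 1.10 ± 0.49 (2.15-fold, limma, adjusted p = 0.339), and within litters it was 2.66, 0.59 and 0.06. Without the KO mouse of litter 1 it was 0.65. TE of Mt1 was 1.54, 3.54 and 3.15 in WT and 6.90, 6.36 and 1.08 in KO, with a log2 fold change of 0.49 ± 0.69 (limma, adjusted p = 0.998), and its denominators rest on these few input reads. Mt2 had 1, 0 and 0 input counts in WT and 4, 0 and 4 in KO (exact permutation test of CPM, two-sided, p = 0.4, with the same lower limit of 0.1). Of the 6 mice, 4 had 0 or 1 count of Mt2, so no fold change is given.

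Saa1, Saa2 and Mt1 varied more among mice of the same genotype than the other genes tested here did. The SD of log2(value + 1) within genotype, pooled over WT and KO, was 0.96 for Saa1, 0.84 for Saa2 and 0.71 for Mt1 in input, at percentiles 98.7, 97.5 and 95.6 of 8994 genes. In RPF it was 0.64, 0.66 and 0.70, at percentiles 95.5, 96.1 and 96.9, while the medians over all genes were 0.26 in input and 0.25 in RPF. Hp and Saa4 lay at 0.37 and 0.34 in input and at 0.21 and 0.25 in RPF. Orm1 had 0.18 in input and 0.32 in RPF. Itih4 was among the steadier genes in input (0.12, percentile 8.41) and Crp in RPF (0.08, percentile 2.46). Low counts widen the SD, so percentiles of Saa1, Saa2 and Mt1 are not those of genes of equal depth.

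**Figure D4:**
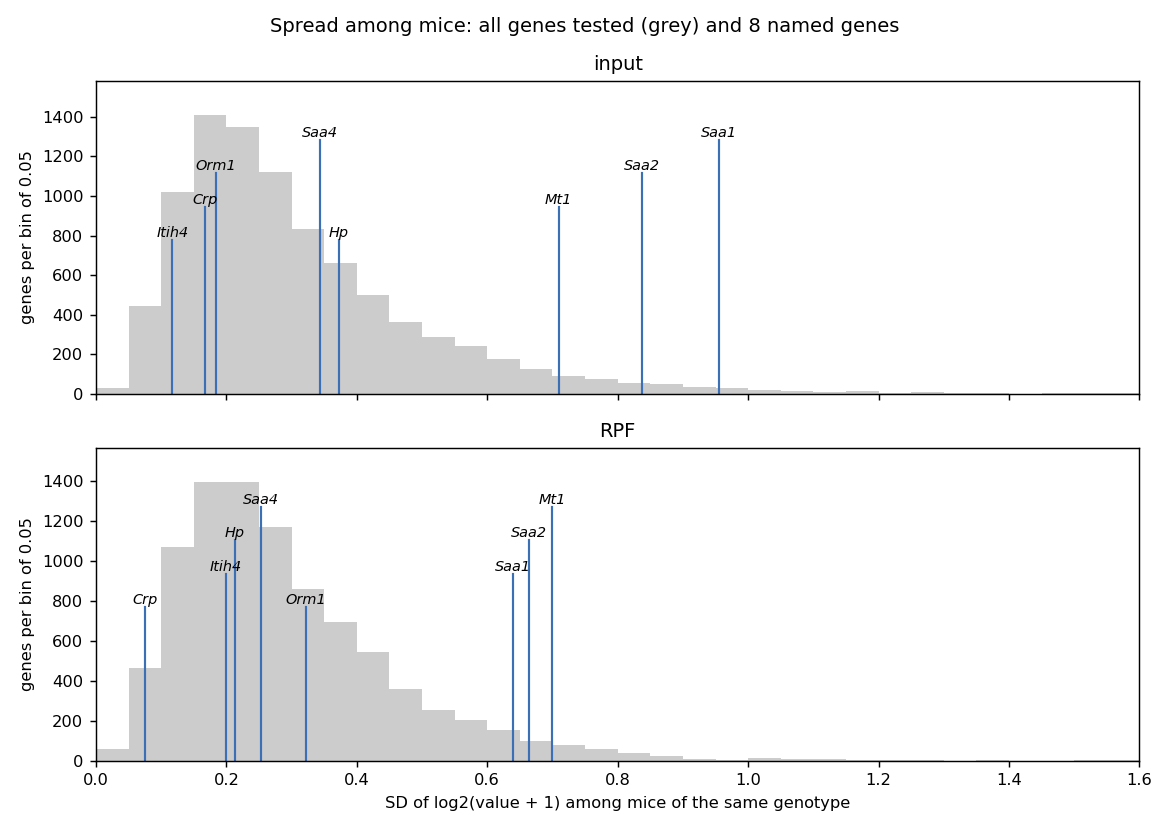
SD of log2(value + 1) among mice of the same genotype in input (top) and RPF (bottom), with grey bars for the number of all 8994 genes per bin of 0.05 and blue lines for the 8 genes tested. The axis ends at an SD of 1.6, and Saa1, Saa2 and Mt1 lie in the right tail of both panels, at 0.64 or more.

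Members were compared across the 6 mice as a description, with points that share library, depth and litter. Over 28 pairs of genes, Pearson's r of log2(value + 1) ran from −0.41 to 0.87 in input and from −0.87 to 0.74 in RPF. Saa1 and Saa2 had r = 0.52 in input and 0.46 in RPF. Orm1 and Crp had r = 0.87 in input and 0.74 in RPF, and after group means were subtracted 0.75 and −0.24. Orm1 and Mt1 had r = −0.87 in RPF and −0.74 after subtraction, and −0.31 in input. Of the 28 pairs, 19 had a positive r in input and 15 in RPF.

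The genes of most similar RPF pattern to Mt1, of the members the one with the widest spread in RPF, were Ppp1r3g, Dnajc15, Fcer1g, Usp22 and Rcn1, with r from 0.969 to 0.984 over 6 mice. Their r with Mt1 in input ran from −0.70 to 0.30. Those most similar to Saa2, the next widest, were Mid2, Serpinb6a, Tmbim1, Galnt4 and Actb, with r from 0.968 to 0.990 in RPF and from −0.20 to 0.77 in input. They are the highest of 8993 values each and carry no test.

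Other genes of the same pathways were followed as lists, and no gene of any list had an adjusted p under 0.05 in input, RPF or TE. Of 18 further positive acute phase genes, 14 were tested in input and 15 in RPF and TE. Only 1 (Cp, lower in KO) had an unadjusted p under 0.05, in RPF, where 13.4% of all genes tested had one. Cp, which encodes the copper-carrying ferroxidase ceruloplasmin, had a log2 fold change of −0.31 ± 0.14 in RPF (limma, adjusted p = 0.329). After removal of the GC content trend the change of Cp was −0.062, and its p was no longer under 0.05 before adjustment. Fgg, the gamma chain of fibrinogen, had −0.36 ± 0.21 (adjusted p = 0.479, limma), −0.17 without the WT mouse of litter 1 and −0.21 after removal of the trend. The median RPF change of this list was −0.02, close to the −0.03 of all genes. All 6 negative acute phase genes were tested, with a median of 0.05 in RPF. Ahsg, the plasma glycoprotein fetuin-A, had 0.26 ± 0.16 (adjusted p = 0.480) and Alb, albumin, −0.36 ± 0.23 (adjusted p = 0.531, both limma). That of Alb was −0.098 without the WT mouse of litter 1 and −0.59 without that of litter 3, and that of Ahsg ran from 0.15 without the KO mouse of litter 3 to 0.41 without that of litter 2.

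Of 14 genes of cytokine signalling and transcription factors, 13 were tested. In input, 1 higher (Nfkb1) and 1 lower (Il1r1) in KO had an unadjusted p under 0.05. In RPF, 1 higher (Cebpd) and 1 lower (Il1rap) had one, so the genes were not the same in both assays. Of all genes tested, 3.46% had one in input and 13.4% in RPF. Cebpd, a C/EBP transcription factor that inflammation induces, had RPF values of 10.5, 17.1 and 15.99 in WT and 34.8, 33.2 and 19.1 in KO. These did not overlap, and 6.97% of all genes tested were likewise higher in every KO mouse. The log2 fold change of Cebpd was 0.94 ± 0.38 in RPF (limma, adjusted p = 0.293) and 0.38 ± 0.42 in input (edgeR, adjusted p = 0.999). After removal of the GC content trend the RPF change of Cebpd was 0.48. Il1rap, the accessory chain of the interleukin-1 receptor, had −0.38 ± 0.15 in RPF (limma, adjusted p = 0.280) and −0.27 after removal of the trend, and neither gene then had an unadjusted p under 0.05.

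Of 12 genes of metal handling, 10 were tested, and 1 (Slc39a4, higher in KO) had an unadjusted p under 0.05, in RPF, against 13.4% of all genes tested. Slc39a4 encodes the zinc importer ZIP4. Its RPF was 185, 119 and 314 in WT and 845, 349 and 575 in KO, without overlap, and its input 53.2, 61.1 and 168 in WT and 328, 109 and 339 in KO, with overlap. In RPF, 6.97% of all genes tested were higher in every KO mouse. The log2 fold change of Slc39a4 was 1.53 ± 0.64 in RPF (limma, adjusted p = 0.354), 1.46 ± 0.70 in input (edgeR, adjusted p = 0.999) and 0.05 ± 0.90 in TE (limma, adjusted p = 0.998), positive in 3 of 3 litters in the first 2. After removal of the GC content trend the RPF change of Slc39a4 was 1.40, with a p no longer under 0.05 before adjustment. Atp7b, the copper exporter of hepatocytes, had 0.28 ± 0.18 in RPF (limma, adjusted p = 0.506), and 0.15 without the KO mouse of litter 1. All 9 genes of glucocorticoid response were tested, and none had an unadjusted p under 0.05, against 3.46% of all genes in input, 13.4% in RPF and 4.7% in TE. Sgk1, a kinase induced by corticosteroids, had 0.30 ± 0.22 in RPF (adjusted p = 0.585), and Hsd11b1, which regenerates active glucocorticoid, −0.33 ± 0.17 (adjusted p = 0.418, both limma). Sgk1 had 0.17 without the KO mouse of litter 1, and Hsd11b1 −0.15 without the WT mouse of litter 1.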

How the data were processed

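Whole-lysate RNA (input) and ribosome-protected fragments of 6 mouse livers were sequenced. The authors trimmed reads with BBDuk, aligned input pairs to mm10 with STAR 2.7.3a and counted them per gene with featureCounts (1.6.0 per the submitters' notes, 2.0.3 in the file header), which gave the deposited counts. RPF reads were processed in RiboToolkit, keeping those with a single location. The deposited table of normalized values is a signal, reads divided by a factor per library with no length term, since dividing out that factor gave whole reads (within 0.1 read) for 100% of the genes in each column. The table also holds the authors' fold changes and p-values, which were not used. No column was without a sample.

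Input counts were tested with edgeR 4.0.16 (TMM, filterByExpr, robust quasi-likelihood, R 4.3.3), and CPM are TMM-scaled. For RPF and TE, limma 3.58.1 (trend, robust) was run on log2(value + 1) in 1 fit of all 12 libraries, over genes whose mean reached 10 in both assays. This fit takes the input and RPF libraries of a mouse as independent and pools their spread for each gene. Its SEs are therefore not the spread of RPF alone, and the input and RPF contrasts of a gene share the same SE. Fold changes on the scale of log2(value + 1) understate those of low genes. SEs of edgeR are the log2 fold change over the square root of F. P-values are two-sided, with Benjamini-Hochberg adjustment over all genes tested. The fits were also run on simulated counts, drawn with the same spread for every gene and no effect of mouse or litter. The spread of the real data differed by gene and assay, so those runs do not show how the fits perform here. Alternatives were DESeq2 1.42.0, filters, pseudocounts of 0.1 and 5, edgeR on whole reads, removal of a spline trend with coding GC content, blocks of litter or mouse, and leaving out each mouse.

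The labels name mice of the same number as littermates, so numbers pair the mice. Deviations from group means correlated between littermates with r of 0.082 to 0.127 (input) and 0.144 to 0.242 (RPF). Between WT and KO mice of different litters r ran from −0.117 to 0.017 in input and from −0.24 to 0.08 in RPF. Subtracting the means of 3 mice makes such r balance around 0, so they are given as a description only. The litter was left out of the first fits because the published methods name none. Members, gene lists and tests were chosen with earlier results of these data known. Genes named beside the members were, per list, those with an adjusted p under 0.05 or else the 2 with the smallest p in RPF, and the 5 most correlated with each of the 2 most variable members. Coding lengths, coordinates and shared windows come from GENCODE vM21.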

Additional observations from a re-analysis of the deposited data

How the results depend on the processing

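No member passed in input or TE under any alternative run, and in RPF 1 member (Crp) passed with the replicate block, while the count was 0 to 1 when each mouse was left out. With the block and the GC content trend removed together, no member passed (Crp, adjusted p = 0.211). The block changed no other member's call. Over all genes, the number called in input was 0 in edgeR, 1 in DESeq2, 30 with no count filter, 2 with the replicate block and 0 to 21 without each mouse. In RPF it was 44, then 13 after the GC content trend was removed, 90 with both that and the replicate block, 293 with the replicate block alone and 0 to 226 without each mouse. In TE it was 0 in every fit run. The cause of these shifts was not tested.

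Signs of small log2 fold changes turned under some settings. In input, values without each mouse ran from −0.34 to 0.19 for Hp (−0.054 with the replicate block), −0.77 to 0.34 for Saa1, −0.36 to 0.39 for Saa2 and −0.29 to 0.091 for Saa4. In RPF they ran from −0.17 to 0.076 for Itih4 (0.014 with edgeR on whole reads) and −0.68 to 0.0030 for Saa1. In TE they ran from −0.19 to 0.013 for Itih4, −0.35 to 0.066 for Orm1, −0.23 to 0.0058 for Saa4 and −0.15 to 0.34 for Slc39a4, which had −0.081 after the GC content trend was removed, with or without the block. Orm1 turned in TE only without WT mouse 1, Saa1 in RPF only without KO mouse 2, and Saa4 in input and TE only without KO mice 1 and 3 respectively.

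Without KO mouse 3, Mt1 fell under the filter on low values and has no value. Low input counts limit Saa1, Saa2, Lcn2, Mt1 and Mt2, and there were 3 mice per genotype. P-values of edgeR in input rest on the spread between these mice. Those of limma rest on a spread pooled over input and RPF libraries, although the assays differed in spread for some genes. The SD within genotype was 0.17 in input and 0.08 in RPF for Crp, and 0.18 and 0.32 for Orm1. Of 524 comparisons of a result with an alternative, 481 kept their direction and side of the threshold or, for counts of genes called, gave a similar number. As no member passed in the first fits, keeping that side says little about stability.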

Other observations

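Hamp, which encodes the iron hormone hepcidin and is itself induced by interleukin-6, was chosen here after its values were seen. Its normalized input was 482, 409 and 506 in WT and 737, 654 and 358 in KO, and its RPF 1483, 1310 and 1444 in WT and 2283, 1578 and 857 in KO. The KO mice of litters 1 and 2 stood above all WT mice and that of litter 3 below them, in both assays. The log2 fold change was 0.36 ± 0.26 in input (edgeR, adjusted p = 0.999) and 0.05 ± 0.34 in RPF (limma, adjusted p = 0.966). Saa3, a serum amyloid A gene of macrophages and other cells outside the hepatocyte, had 6, 5 and 14 input counts in WT and 23, 1 and 9 in KO, and was also chosen after its values were seen.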
